A study of Mus musculus with 6 samples.

Results

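Basal cells are the stem cells of the pseudostratified airway epithelium, and 9 genes known from them other than keratins were examined: Trp63, Snai2, Ngfr, Fgfr2, Dlk2, Bcam, Dst, Aqp3 and Cav2. They were chosen by name, and each was represented by the 1 probe set whose annotation gave its symbol alone, 9 of the 19938 genes that could be named in this way. RNA came from larger proximal airways that were cut by hand out of stained frozen lung sections, with 1 Affymetrix mouse gene array for each sample. All mice were 9-week-old animals of a mix of the C57BL/6 and 129X1 strains. The 3 control arrays came from Scgb1a1-Cre mice. The 3 mutant arrays came from Scgb1a1-cre:Foxp1flox/flox:Foxp4flox/flox mice, in which the same driver acts on floxed alleles of the forkhead transcription factor genes Foxp1 and Foxp4. Controls therefore carried the Cre as well. Scgb1a1 is the defining gene of club cells, the secretory cells of the airway, and cells outside that lineage are meant to keep both floxed genes. In which cells the Cre acted was not measured here. Samples are numbered 1 to 3 per group, but the labels name no individual mice; the p-values therefore reflect only how far these samples varied, some of which may be technical.

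As background, basal cells sit on the basement membrane and give rise to club and ciliated cells after injury. In the mouse they line the trachea and main bronchi and become sparse in the airways inside the lung. The transcription factor p63, product of Trp63, is required for them to form, and hemidesmosomes anchored to a keratin 5 and keratin 14 network hold them to the matrix. Few of their genes are exclusive to them: Ngfr is also a gene of Schwann cells, Snai2 of fibroblasts, Cav2 of endothelium and alveolar type 1 cells, and Fgfr2 and Dst are expressed in many tissues.

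None of the 9 genes differed between mutant and control airways past limma's threshold, an adjusted p of 0.05 over all 19938 genes, where 0.266% of all genes were called. All 9 had a higher mean in mutants, with log2 differences from 0.045 for Dst to 0.54 for Aqp3 and a median of 0.25, beside a median of 0.016 over all genes and 54.6% of all genes with a difference above 0. At an unadjusted p under 0.05 there was 1 gene of the 9, Cav2, where 10.1% of all genes passed. For none of the 9 did the mutant and control arrays separate without overlap, as they did for 15.0% of all genes. The arrays within a group lay far apart for several of them, and control 1 lay within the mutant range for 7 of the 9 and above all mutants for 2. The median of the 9 was 0.43 without control 1 and 0.061 without mutant 1, and without control 3 only 7 of the 9 differences were above 0. Leaving out control 1 moved the number of genes called on the whole array from 53 to 388. Values per array are log2 expression throughout and differences are on the log2 scale, mutant minus control. With so few samples, an exact permutation test of 3 against 3 arrays cannot give a two-sided p below 0.1.

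**Figure D1:**
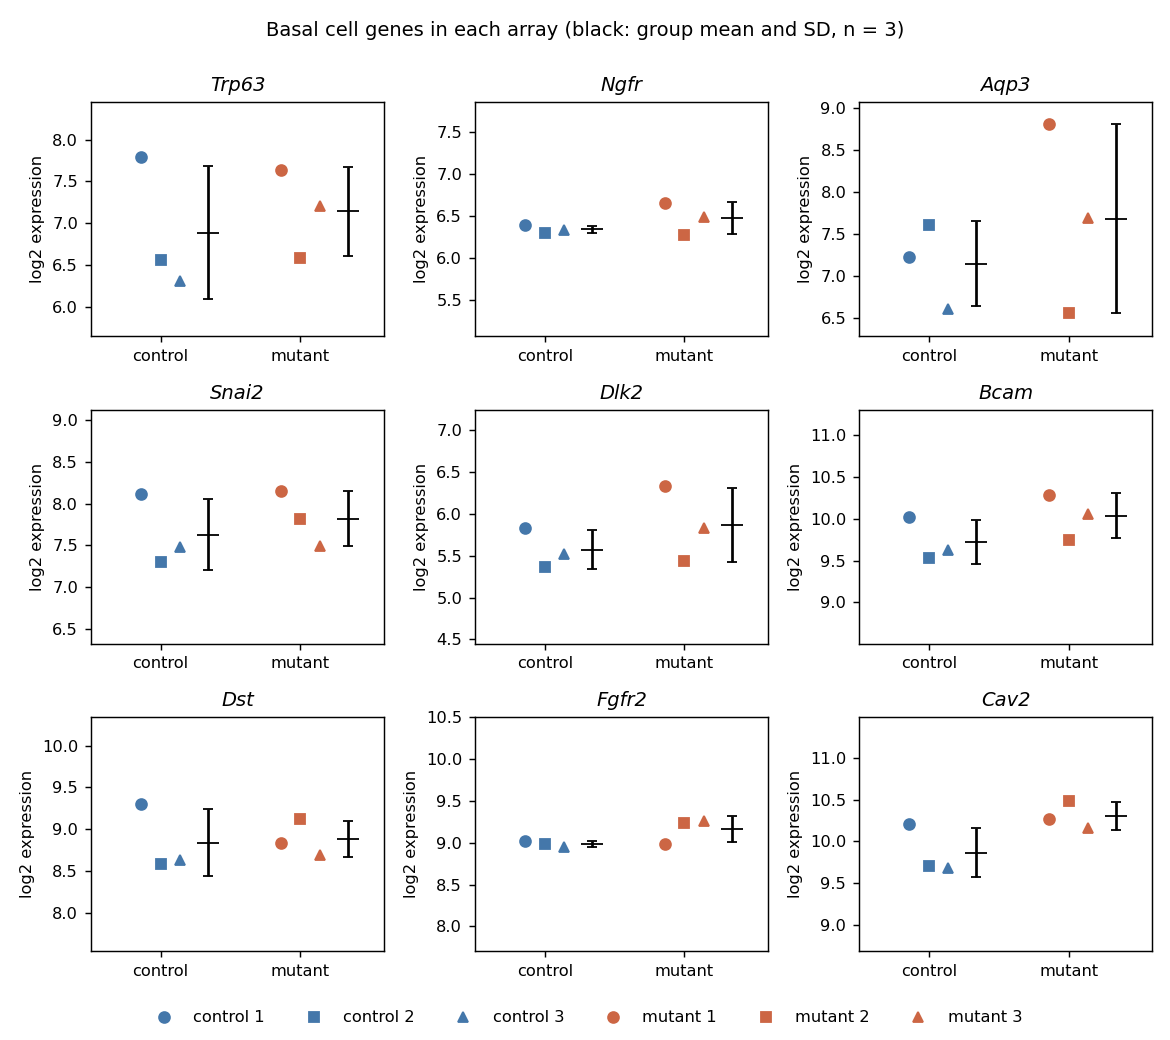
Log2 expression (vertical axis, the same span in every panel) of the 9 basal cell genes in the 3 control (blue) and 3 mutant (orange) arrays, with marker shape giving the sample number and black bars the group mean and SD. For Trp63, control 1 (7.79) lies above every mutant array, and Aqp3 runs from 6.55 in mutant 2 to 8.81 in mutant 1.

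Trp63 was the gene on which the identity of these cells rests. It read 7.79, 6.56 and 6.31 in controls 1, 2 and 3 and 7.63, 6.58 and 7.21 in mutants 1, 2 and 3. The highest array was thus a control, the lowest was another control, and the groups overlapped fully. In controls 2 and 3 Trp63 lay below the array medians over named genes, 6.60 and 6.57. Group means were 6.89 ± 0.79 (SD, n = 3) and 7.14 ± 0.53, a log2 difference of 0.25 with a 95% interval from -0.80 to 1.30 (SE 0.44, limma adjusted p = 0.917). The span over the 6 arrays, 1.48 log2 units, was that of the control group alone. The difference depended on single arrays: it was 0.70 without control 1, -0.0345 without control 3 and 0.0071 without mutant 1. With control 1 and mutant 2 both left out, a pair taken from earlier results on these arrays, it was 0.98 and passed (limma adjusted p = 0.0378). With controls 2 and 3 left out it was -0.65. Because whole dissected airway was measured, a change in the number of basal cells and a change in RNA per basal cell cannot be told apart.

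The related gene Trp73, whose product drives multiciliated cell formation, had a control mean of 7.44 and a mutant mean of 7.10 and did not pass (adjusted p = 0.839), and Trp53 was not analysed here. Genes known as p63 targets in stratified epithelia gave 0 of 9 past the threshold and 1 of 9 at an unadjusted p under 0.05, near the 10.1% of all genes, with a median log2 difference of 0.005. That 1 was Perp, a desmosomal membrane protein, with arrays at 8.75, 8.13 and 7.96 in controls and 9.25, 8.78 and 9.16 in mutants. Every mutant array lay above every control array, as in 9.33% of all genes, and the log2 difference of Perp was 0.78 (SE 0.23, adjusted p = 0.339). Sfn, the epithelial 14-3-3 protein stratifin, had a log2 difference of 0.68, Fermt1, an integrin activator, -0.20, and the integrin chain gene Itgb4 0.087, none of them past the threshold.

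Snai2 encodes Slug, a zinc finger repressor that basal cells share with mesenchymal cells. Its values were 8.11, 7.30 and 7.48 in controls and 8.15, 7.82 and 7.50 in mutants. Control 1 and mutant 1 were the high arrays, and the remaining mutants lay within the control range. The log2 difference was 0.19 (95% interval -0.42 to 0.80, limma adjusted p = 0.883). It was 0.43 without control 1, but 0.027 without either mutant 1 or control 2. In the list of its relatives and of its target Cdh1, 0 of 7 genes passed and 0 of 7 had an unadjusted p under 0.05, with differences between -0.11 and 0.35. Snai1, the closest relative, had the highest of these, and Zeb1 (-0.095), Twist2 (-0.067) and Twist1 (-0.11), further repressors and activators of mesenchymal programmes, lay below 0.

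Surface receptors or receptor-like proteins were among the genes. Ngfr, the low-affinity neurotrophin receptor by which airway basal cells are sorted, varied least among the controls together with Fgfr2. It read 6.39, 6.30 and 6.34 in controls and 6.66, 6.27 and 6.49 in mutants. All arrays but mutant 1 lay below the array medians over named genes (6.53 to 6.60). Whether the processing compressed differences at this level was not tested. Mutants 1 and 3 lay above every control and mutant 2 below all of them, for a log2 difference of 0.13 (95% interval -0.14 to 0.40, adjusted p = 0.784). That difference was 0.039 without mutant 1 and 0.23 without mutant 2. Of the neurotrophins and their other receptors 5 of 8 were measured, and none passed. At an unadjusted p under 0.05 there was 1 of these 5, beside 10.1% of all genes. It was Ntrk2, the receptor for brain-derived neurotrophic factor. Controls stood at 5.79, 5.16 and 5.29 and mutants at 5.95, 6.54 and 6.00, each below its array's median over named genes. Every mutant array lay above every control array, as in 9.33% of all genes (log2 difference 0.75, SE 0.22, adjusted p = 0.345). Differences were 0.17 for Sort1, the co-receptor sortilin, 0.14 for the ligand gene Ntf5 and -0.038 for Bdnf.

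Dlk2, a membrane protein of the Delta-like family, is known as a gene of airway and epidermal basal cells. Its values were 5.83, 5.37 and 5.52 in controls and 6.33, 5.44 and 5.83 in mutants. Mutant 1 was the high array, and mutants 2 and 3 fell within the control range. The log2 difference was 0.29 (95% interval -0.28 to 0.87, adjusted p = 0.765), with 0.061 without mutant 1 and 0.50 without mutant 2. All its values lay below the array medians over named genes (6.53 to 6.60), where the processing can compress differences, which was not tested. Dlk2 alone of the 9 did not pass a filter that removes the 40% of genes with the lowest mean. Among Dlk1 and Notch pathway genes 0 of 9 passed the threshold, while 2 of 9 were higher and 1 lower at an unadjusted p under 0.05, directions in which 5.9% and 4.17% of all genes had such a p. Notch2 was the lower one, at 8.85, 8.83 and 8.64 in controls and 8.38, 8.41 and 8.40 in mutants (difference -0.38, SE 0.087, adjusted p = 0.217). The Notch target gene Hes1 (0.41) and the ligand gene Jag1 (0.40) were the higher pair, and Hey1, another target, had a difference of -0.24. For Notch2, Hes1 and Jag1 the groups did not overlap, as in 15.0% of all genes in either direction and 9.33% with every mutant array higher.

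Fgfr2, the receptor through which FGF10 and FGF7 act on lung epithelium, had the narrowest spread of the 9. Control arrays read 9.02, 8.99 and 8.94, and mutant arrays 8.99, 9.24 and 9.26. Mutants 2 and 3 lay above all controls, and mutant 1 lay among them. The log2 difference was 0.18 with a 95% interval from -0.0595 to 0.42 (SE 0.099, limma adjusted p = 0.624; exact permutation p = 0.2). Which splice forms of the receptor the probe set covers was not examined, so the epithelial and mesenchymal forms are not told apart here. Its pathway showed differences above 0 in 16 of 16 genes listed, with a median of 0.12, against 54.6% of all genes. The list mean was 7.76, 7.48 and 7.43 in controls and 7.78, 7.74 and 7.74 in mutants, so control 1 lay among the mutants and controls 2 and 3 below them. None of the 16 passed, 2 had an unadjusted p under 0.05, both higher (5.9% of all genes), and 3 had every mutant array above every control array (9.33% of all genes).

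The FGF genes with the smallest p were a transcription factor and an extracellular carrier. Etv5, a transcriptional target of FGF signalling, read 9.34, 9.11 and 9.08 in controls and 9.89, 9.92 and 9.90 in mutants. The mutants lay close to each other and above every control, and the log2 difference was 0.73 (SE 0.096, limma adjusted p = 0.0581). Fgfbp1, a carrier that releases FGF from the matrix, stood at 9.72, 9.44 and 9.55 in controls and 9.98, 9.99 and 10.08 in mutants (difference 0.44, adjusted p = 0.208). Spred1 and Dusp6, feedback inhibitors of the downstream kinase cascade, had differences of 0.45 and 0.20. The ligand gene Fgf10, named here as the main ligand and not by rank, had a difference of 0.40 (adjusted p = 0.643), and Etv5 is also an alveolar type 2 gene.

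**Figure D2:**
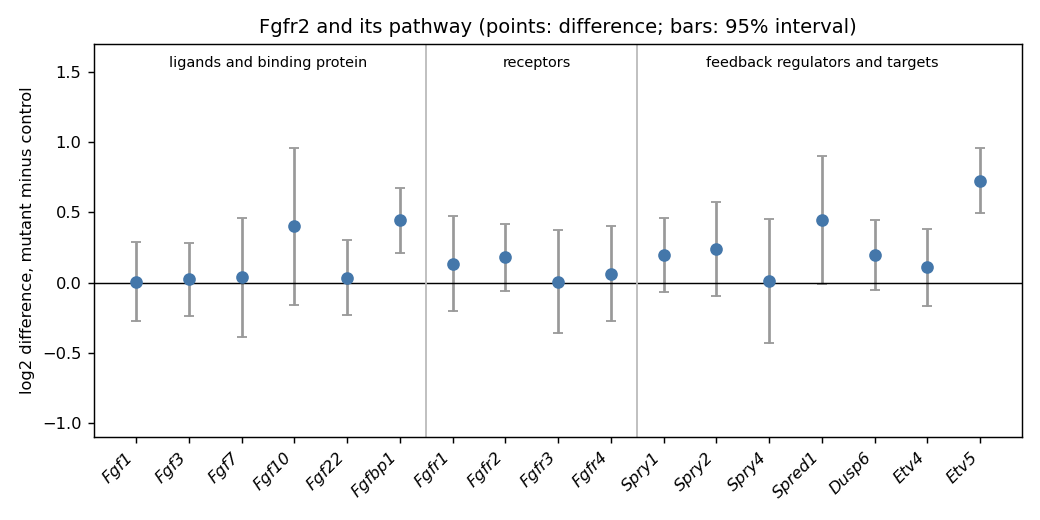
Log2 difference between mutant and control means (vertical axis) for Fgfr2 and 16 genes of its pathway, arranged as ligands and binding protein, receptors, and feedback regulators and targets, with 95% intervals from limma. The interval of Fgfr2 runs from -0.0595 to 0.42, while those of Etv5 (0.50 to 0.96) and Fgfbp1 (0.21 to 0.68) lie above 0 before any adjustment.

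Bcam and Dst act in the attachment of basal cells. Bcam, an immunoglobulin superfamily receptor for the laminin alpha 5 chain, read 10.02, 9.53 and 9.62 in controls and 10.29, 9.75 and 10.06 in mutants. Each mutant array was above controls 2 and 3, while control 1 lay between mutants 2 and 3. The log2 difference was 0.31 (95% interval -0.13 to 0.75, SE 0.18, adjusted p = 0.650). The genes of its laminin ligands gave 0 of 4 past the threshold, with differences of 0.13 for Lamb1, 0.11 for Lama5, 0.030 for Lamc1 and -0.070 for Lamb2.

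Dst encodes dystonin, whose epithelial form BPAG1e links keratin filaments to the hemidesmosome and whose other forms serve nerve and muscle. Which of these forms its probe set covers was not examined here. Controls stood at 9.30, 8.58 and 8.63 and mutants at 8.83, 9.12 and 8.70. Control 1 was the highest array, followed by mutant 2, and the difference was the smallest of the 9 (0.045, 95% interval -0.48 to 0.57, adjusted p = 0.972). It turned below 0 without control 2 (-0.082), control 3 (-0.059) or mutant 2 (-0.074). Among other hemidesmosome and plakin genes 0 of 11 measured passed, and 1 had an unadjusted p under 0.05, beside 10.1% of all genes: Itga6, the integrin alpha 6 chain, with 8.30, 7.91 and 7.94 in controls and 8.26, 8.57 and 8.47 in mutants (difference 0.38, adjusted p = 0.439). The plakin genes Ppl (0.31) and Dsp (0.28) and the laminin chain gene Lama3 (0.28) followed, and the list's median was 0.14.

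Aqp3 and Cav2 encode membrane proteins, and they had the highest differences of the 9. Their promoters are shown because of this, as RefSeq windows of 300 bases on GRCm38.p6, from 250 bases before to 50 after the transcript start. The table held windows for 7 of the 9 genes, not for Trp63 and Snai2, and Dlk2 and Dst had a pair of starts each. The lines give Aqp3 at chr4:41098134-41098433 (minus strand) and Cav2 at chr6:17280935-17281234 (plus strand), each 5′ to 3′ on its gene's strand.
Aqp3: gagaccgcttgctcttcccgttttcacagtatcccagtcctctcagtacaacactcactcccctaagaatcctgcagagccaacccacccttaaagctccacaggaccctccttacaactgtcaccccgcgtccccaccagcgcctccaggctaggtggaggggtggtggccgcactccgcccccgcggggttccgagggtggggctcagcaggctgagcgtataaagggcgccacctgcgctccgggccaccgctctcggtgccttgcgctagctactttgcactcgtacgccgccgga
Cav2: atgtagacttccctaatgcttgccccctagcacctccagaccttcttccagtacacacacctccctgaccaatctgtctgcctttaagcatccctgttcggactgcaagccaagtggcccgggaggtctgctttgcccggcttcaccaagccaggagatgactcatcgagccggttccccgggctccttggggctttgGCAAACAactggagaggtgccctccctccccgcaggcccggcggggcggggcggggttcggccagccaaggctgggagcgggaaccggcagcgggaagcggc
Capitals mark exact matches to the forkhead cores TGTTTAC and TGTTTGC, both searched on either strand; they differ in a letter, so no position counted under both. The 9 windows of the 7 genes held 1 match, in Cav2, to TGTTTGC on the opposite strand. The printed strand shows this match as GCAAACA, starting 52 bases before the transcript start. Over all 32851 promoter windows, 5.07% held TGTTTGC and 3.65% TGTTTAC. A match is a description of the letters and does not show binding.

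Aqp3, the aquaglyceroporin of basal cell membranes, varied most. It read 7.22, 7.61 and 6.60 in controls and 8.81, 6.55 and 7.69 in mutants. Both the highest and the lowest array were mutants, 2.26 log2 units apart. The means differed by 0.54, or 1.45-fold (SE 0.57, 95% interval -0.82 to 1.90, limma adjusted p = 0.838), and without mutant 1 the difference was -0.0225. Among the other aquaporins 0 of 10 passed, and 1 had an unadjusted p under 0.05, beside 10.1% of all genes. It was Aqp5, the water channel of gland and alveolar type 1 cells. Controls stood at 9.26, 8.94 and 8.85 and mutants at 9.79, 9.18 and 9.62 (log2 difference 0.51, limma adjusted p = 0.442). Aqp11 (0.23), Aqp12 (0.13) and Aqp9 (-0.093) came next by p.

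Cav2, the caveolin that assembles with Cav1 in caveolae, had the smallest p of the 9. Controls stood at 10.20, 9.71 and 9.68 and mutants at 10.26, 10.49 and 10.15. All mutants lay above controls 2 and 3, and control 1 lay above mutant 3. The log2 difference was 0.44, or 1.36-fold (SE 0.17, 95% interval 0.033 to 0.84), with an unadjusted limma p of 0.0379, an adjusted p of 0.468 and an exact permutation p of 0.2. Without control 1 it was 0.61 (adjusted p = 0.0848). Over all 16 alternative settings its adjusted p ranged from 0.0534 to 0.979 and its direction stayed higher in mutants.

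The partner Cav1, named for that role and not by rank, had a difference of 0.10 (adjusted p = 0.935), with arrays at 10.87, 10.19 and 10.52 in controls and 10.70, 10.88 and 10.30 in mutants. Of the caveola genes 0 of 8 passed and 1 had an unadjusted p under 0.05, beside 10.1% of all genes. It was Cavin4, a cavin known from muscle, at 6.29, 4.94 and 5.36 in controls and 7.22, 6.93 and 6.55 in mutants (difference 1.37, SE 0.35, adjusted p = 0.282). Pacsin2 (0.19), Cavin1 (0.22) and Cav3 (0.19) followed. Markers of other cells with caveolae moved as follows. Alveolar type 1 genes had a median difference of 0.33 (6 of 7 above 0, 2 of 7 at an unadjusted p under 0.05; 54.6% and 10.1% of all genes), with list means of 9.26 to 9.79 in controls and 9.66 to 9.85 in mutants. Endothelial genes had a median of -0.026 (3 of 8 above 0) and means of 8.61 to 9.26 and 8.55 to 9.31. Their part in the Cav2 values was not tested.

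**Figure D3:**
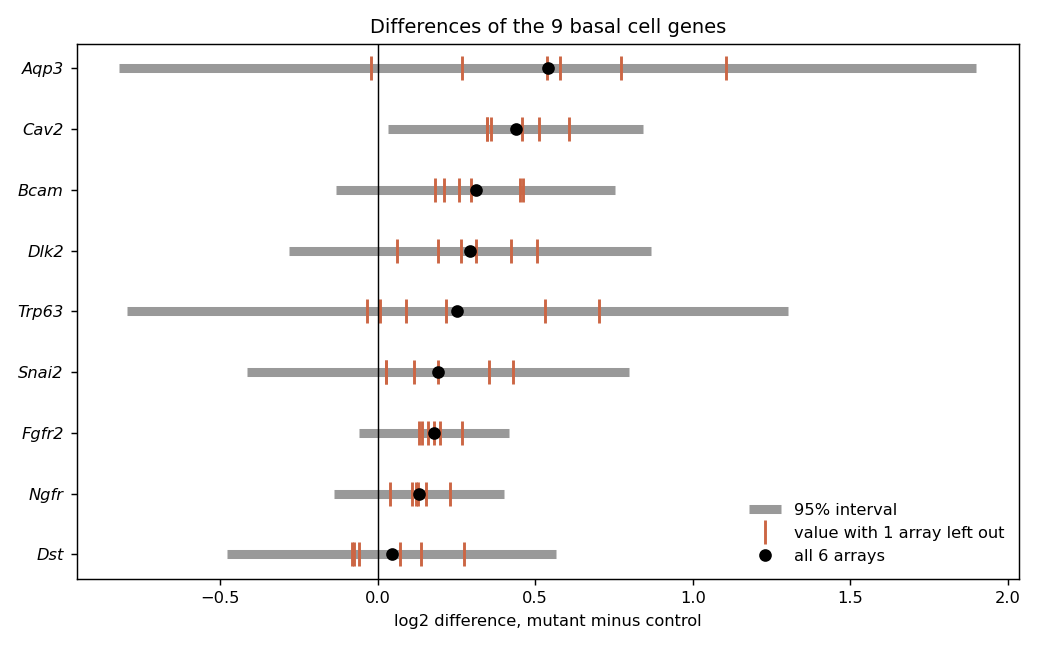
Log2 difference between mutant and control means (horizontal axis) for the 9 genes, with 95% intervals from limma (grey) and the value after leaving out each array in turn (orange ticks). All 9 points lie above 0, the interval of Cav2 alone excludes 0, and leaving out 1 array takes Dst, Trp63 or Aqp3 below 0.

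The basal keratins, whose proteins form the filaments of these cells, showed a like spread between arrays. Krt5 read 8.17, 7.42 and 6.43 in controls and 8.93, 6.73 and 7.63 in mutants (difference 0.42, adjusted p = 0.900). Krt15 spanned 4.02 log2 units, from 5.96 in control 3 to 9.98 in mutant 1, and its difference of 1.07 did not pass (SE 1.0, adjusted p = 0.814). Krt14 (5.94 to 6.13) and Krt17 (5.61 to 6.17) stayed close to 6 in every array, below the array medians over named genes (6.53 to 6.60).

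The 9 genes varied in part together across arrays of both genotypes. Mutant 1 was the highest array for 5 of them and control 1 for 2, while control 2 was the lowest for 4 and control 3 and mutant 2 accounted for the other 5. Control 1, mutant 1 and mutant 3, the 3 highest arrays for Trp63, were also the 3 highest for Ngfr, Dlk2 and Bcam, and for Krt5 and Krt15 among the keratins. Over all genes these were the 3 highest arrays in 9.52%, and among the p63 target genes named above in 5 of 9. Snai2, Dst and Cav2 instead had mutant 2 among their 3 highest arrays beside control 1 and mutant 1, Fgfr2 had it beside control 1 and mutant 3, and Aqp3 was high in control 2 and mutants 1 and 3.

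**Figure D4:**
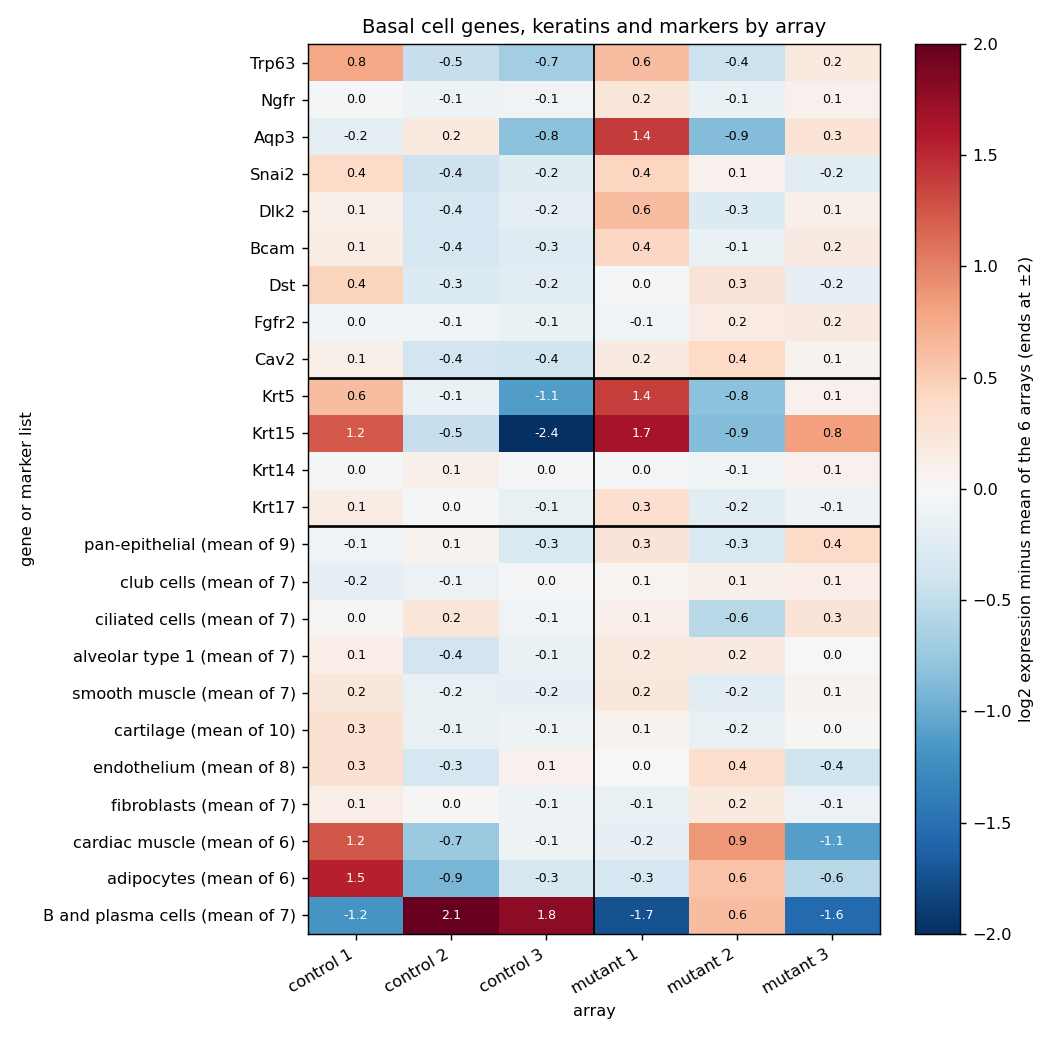
Log2 expression minus the mean of the 6 arrays (colour and printed value, colour scale ending at 2 log2 units either way) for the 9 basal cell genes, the 4 basal keratins and the means of marker lists (rows) in each array (columns). Trp63, Krt5 and Krt15 are high in control 1 and mutants 1 and 3, while B and plasma cell genes are high in controls 2 and 3 and low in control 1 and mutants 1 and 3.

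Some markers of other tissues in the dissected airway were high in the same arrays, and others were not. All 7 smooth muscle genes had control 1, mutant 1 and mutant 3 as their 3 highest arrays, with the list mean at 11.0, 10.6 and 10.6 in the control arrays against 11.0, 10.6 and 10.8. Of 10 cartilage genes, a list added after these values were seen, 6 had the same 3 highest arrays, with means of 6.00, 5.54 and 5.58 against 5.76, 5.53 and 5.71. None of the 6 cardiac muscle and none of the 6 adipocyte genes had those arrays as their 3 highest, and 3 of 10 skeletal muscle genes, also a list added afterwards, did. Cardiac means were 11.6, 9.62 and 10.2 in controls and 10.2, 11.2 and 9.25 in mutants, high in control 1 and mutant 2. Adipocyte means followed these, at 9.21, 6.75 and 7.34 against 7.32, 8.23 and 7.10. B and plasma cell genes ran the other way, the list mean being 5.84, 9.09 and 8.82 in controls 1 to 3 against 5.28, 7.64 and 5.46 in mutants 1 to 3. Pan-epithelial genes had means of 10.06, 10.2 and 9.85 against 10.4, 9.85 and 10.5, a median difference of 0.29 and 8 of 9 differences above 0, near the median of the 9 basal cell genes. Their part in the basal cell values was not tested.

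The pattern closest to that of Trp63 over the 6 arrays, by the root mean square difference of centred log2 values, belonged to Tnni2 (0.14), followed by Tnnt3 (0.17), both fast troponin genes, and Synpo2 (0.22), an actin-binding protein of smooth muscle. Trp63 itself deviated from its mean by 0.56 on this measure. Closest to Aqp3, which deviated by 0.76, were the potassium channel subunit gene Kcne3 (0.19), Ern2 (0.32), a stress sensor of mucous cells, and B3galt2 (0.33). The other 7 genes spanned less than 1 log2 unit and were not matched. None of these neighbours passed limma's threshold (adjusted p between 0.574 and 0.967).

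Squamous epithelium, as of the oesophagus, also expresses Trp63, and its genes were checked. The mean of 11 such genes lay between 4.93 and 5.13 in all arrays. Krt13 stood between 4.81 and 5.03 and Dsg3 between 4.22 and 4.42, near or below the lower quartile of named genes (4.81 to 4.91), whereas Sprr1a read 7.27 to 8.67 and Krt10 6.09 to 6.28. Krt4 alone of the 11 had an unadjusted p under 0.05, beside 10.1% of all genes (log2 difference 0.58, limma adjusted p = 0.175). Its values, 4.30 to 5.15, also lay near that lower quartile. Schwann cell genes, which bear on Ngfr, were measured for 5 of 8, with a median difference of -0.0101. The defining gene Sox10 stayed between 5.80 and 6.06, S100b had a difference of -1.04 and Erbb3 one of 0.42, none past the threshold. The targeted genes Foxp1 (log2 difference -0.23) and Foxp4 (-0.69) were lower in every mutant array than in every control array. Groups did not overlap, in either direction, in 15.0% of all genes, and in 9.33% every mutant array was the higher. Neither Foxp1 nor Foxp4 passed (limma adjusted p = 0.444 and 0.339). Which exons their probe sets cover was not examined here.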

How the data were processed

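Per the submitters' processing notes, the authors used oligo, RMA and limma; versions, genome build and the extent of joint normalisation are not given in the sources used. The authors deposited log2 values for each probe set on every array. RMA can compress differences of dim probe sets, and how far it did so here was not tested. No detection calls or scan dates were used, and the number of arrays limits precision.

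Of 35556 rows, 21789 had exactly 1 symbol. The row with the highest mean stood for a gene, leaving 19938 genes. Mutant and control arrays were compared with lmFit and eBayes in limma 3.58.1 (R 4.3.3) on all genes, genotype as the only term, with two-sided p-values adjusted by Benjamini and Hochberg and a threshold of 0.05. The procedure was tested on simulated data. Tables and figures used Python 3.11.15, pandas 2.3.3 and matplotlib 3.10.9.

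The genes and lists were chosen with earlier results of these data known. The text names all 9 genes, up to 4 genes of each related list by p, and for genes spanning at least 1 log2 unit the 3 closest patterns. Fgf10, Cav1 and the genes named from lists of other cell types fall outside this rule and were named with values known. The cartilage and skeletal muscle lists were added after seeing the data. Alternatives were other normalisations, a filter on the lowest 40% of genes, means of rows, a replicate block, array weights, other variance priors and leaving out arrays.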

Additional observations from a re-analysis of the deposited data

How the results depend on the processing

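For the 9 basal cell genes, no member passed in 15 of the 16 alternatives. With control 1 and mutant 2 left out, 1 did, Trp63 (0.98, adjusted p = 0.0378), and the median of the 9 became 0.52; the cause was not tested. Leaving out 1 array moved the median between 0.0613 and 0.43. Leaving out arrays moved Trp63 from -0.0345 (without control 3) up to 0.98, Aqp3 from -0.0225 (without mutant 1) to 1.15, and Dst from -0.0817 (without control 2) to 0.28, with -0.059 without control 3 and -0.074 without mutant 2. Without controls 2 and 3, which leaves 1 control assumed to vary like the mutants, they were -0.65 for Trp63, -0.29 for Snai2 and -0.42 for Dst. Ngfr, Dlk2, Bcam, Fgfr2 and Cav2 kept their direction in the alternatives run for them. Dlk2 could not be followed under the filter on low means. Over all genes limma called 53, with 291 under array weights, 82 with an intensity trend, 963 without control 1 and mutant 2, 0 without controls 2 and 3 (1542 at an unadjusted p under 0.05), and between 9 (without control 2) and 388 (without control 1) with 1 array left out. With the replicate number as a block 0 genes were called (1945 at an unadjusted p under 0.05) and the median of the 9 stayed 0.25. Deviations of same-numbered arrays correlated at 0.14, -0.091 and -0.040. The labels do not say that a number is shared between groups, and these correlations cannot show whether samples were paired.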
